A study of Homo sapiens with 16 samples.

Results

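H460 and H1703 are human non-small cell lung cancer lines that the series calls responsive to 2 small molecules given together, and the comparison described here asks, gene by gene, where their RNA responses to that treatment differed. The measure is the difference of responses, which is the change in H460 (combination minus vehicle) minus the change in H1703 (combination minus vehicle). It used 4 groups of 2 libraries each, 8 of the 16 libraries of the series, and 23968 of the 28951 genes in the table. H460 with the combination, H460 with vehicle, H1703 with the combination and H1703 with vehicle were the groups. The combination paired MYCi975 (5 µM), which inhibits MYC, with TMP195 (25 µM), which inhibits HDAC4, HDAC5, HDAC7 and HDAC9, the histone deacetylases of class IIa. Vehicle was DMSO. Cells were grown in RPMI medium with 10% serum, treated 1 day after plating and held for 48 hours. Each group is 1 established line in culture, so a difference between H460 and H1703 is a difference between those lines, and the single agents were not analysed here. The spread was estimated in 1 fit of all 16 libraries, including those of the lines HCC827 and H441. The labels do not tell whether replicate libraries stem from separate cultures, so p-values measure the spread between replicate libraries, which may be technical.

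MYC binds DNA as a dimer with MAX at the E-box, and the related proteins MXI1, MNT, MLX and MLXIP share or compete for the same sites. Class IIa histone deacetylases act mainly as corepressors that bind MEF2 factors, and their catalytic activity is weak. Stress on protein synthesis or on amino acid supply activates the integrated stress response, in which the factor ATF4 raises genes of amino acid uptake, synthesis and tRNA charging.

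The 8 libraries held 8493271 to 13604150 reads in the listed genes, and the share of reads from the mitochondrial genome was 12.12 to 18.19%. Replicate libraries correlated at 0.9736 to 0.9821 (Pearson, across genes, which are not independent replicates). The epithelial markers (EPCAM, CDH1, KRT8 and KRT18) summed to 20839 to 25375 normalised reads in the H460 libraries and to 224 to 260 in the H1703 libraries. The mesenchymal markers were high in both lines, at 8017 to 19939 in H460 and 10402 to 18231 in H1703. Alveolar markers did not exceed 18.1 and the 1 squamous marker listed did not exceed 2.18 normalised reads in any of the 8 libraries. Leukocyte and endothelial markers summed to 22.9 or less, and fibroblast markers to 41.1 to 99.9 in H460 and to 6.31 or less in H1703.

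Of the 23968 tested genes, 4579 (19.1%) passed the test of the difference of responses at an adjusted p of 0.05. The H460 change lay above the H1703 change for 2710 genes (11.3%) and below it for 1869 (7.8%), and 2188 of the calls were at least 1 on the log2 scale. The median difference over tested genes was -0.007, with a median standard error of 0.476. In the same fit 6398 genes (26.7%) changed in H460 and 8500 (35.5%) in H1703. The difference between the responses of the other lines of the series, HCC827 minus H441, was called for 481 genes (2.01%), and the H460 and H1703 vehicle groups differed at 11127 genes (46.4%). A higher call does not mean a rise in H460. Among the 2710 genes called higher, 945 fell in H1703 with no call in H460, 661 rose in H460 with no call in H1703, 454 fell in both lines, 406 rose in H460 and fell in H1703, and 174 rose in both. Among the 1869 called lower, 944 rose in H1703 with no call in H460, 382 fell in H460 with no call in H1703, 183 rose in both, 177 fell in H460 and rose in H1703, and 107 fell in both.

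**Figure D1:**
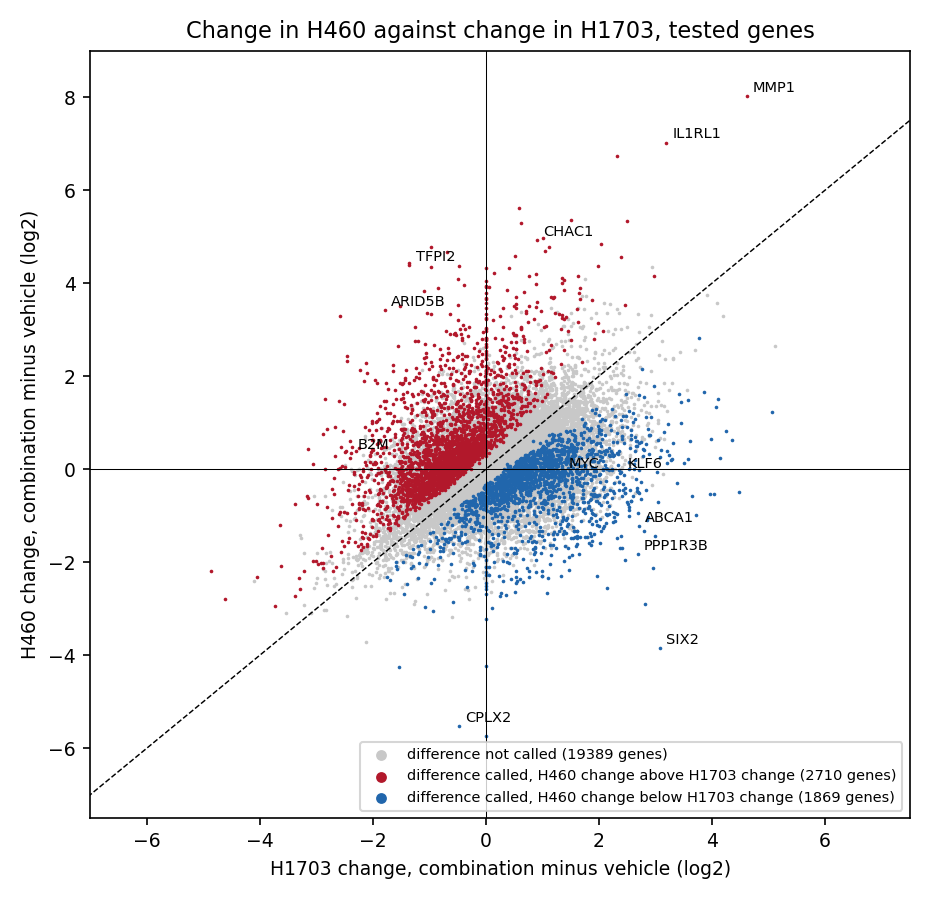
Change in H460 (y axis) against change in H1703 (x axis), each combination minus vehicle on the log2 scale, for the 23968 tested genes; the dashed line marks equal changes. Genes called for the difference lie away from that line on both sides, 2710 above it and 1869 below it, and B2M lies above it through a fall in H1703 while CHAC1 lies above it through a rise in H460 with no call in H1703.

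The calls were made mostly for well-measured genes. The share called was 3.55% among the genes of lowest level and 52.2% among those of highest level, as the median standard error went down with level through 0.96, 0.74, 0.42, 0.23, 0.15 and 0.11. Protein-coding genes were called at 27.2%, lincRNAs at 6.59% and pseudogenes at 4.13%. The median difference also moved with level, with -0.117 and -0.151 in the lowest bins and 0.242 in the highest. Counts in the lists below stand beside 11.3% called higher and 7.8% called lower over all tested genes. The part of level in the shares below was not tested.

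Sequences are shown for promoters of genes whose responses differed and that hold a CARE motif or an E-box, both described below. Of the tested genes, 13261 had a RefSeq promoter (GRCh38.p14, 250 bases before the start site to 50 after), and 10 motifs were searched in them on both strands. The CARE motif TGATGNAA, the site of ATF4 with a CEBP partner, was present in 3.67% of all 27305 promoters. Among promoters of tested genes the CARE share was 1.93%. It was present in 28.6% of the 28 promoters of stress and amino acid genes called higher (8 of 28) and in 14.3% of those not called (4 of 28). It was also present in 2 of the 5 called lower. The first 4 promoters below are of such genes, with each match in capitals, and the first 3 genes were called higher and SLC3A2 lower.
CHAC1, chr15:40953221-40953520, plus strand: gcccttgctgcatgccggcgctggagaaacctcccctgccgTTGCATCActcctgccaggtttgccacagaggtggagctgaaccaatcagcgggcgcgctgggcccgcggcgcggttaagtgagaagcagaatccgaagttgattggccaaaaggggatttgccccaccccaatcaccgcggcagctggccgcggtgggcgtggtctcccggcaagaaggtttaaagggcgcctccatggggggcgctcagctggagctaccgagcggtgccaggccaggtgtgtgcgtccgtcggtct
MARS1, chr12:57487818-57488117, plus strand: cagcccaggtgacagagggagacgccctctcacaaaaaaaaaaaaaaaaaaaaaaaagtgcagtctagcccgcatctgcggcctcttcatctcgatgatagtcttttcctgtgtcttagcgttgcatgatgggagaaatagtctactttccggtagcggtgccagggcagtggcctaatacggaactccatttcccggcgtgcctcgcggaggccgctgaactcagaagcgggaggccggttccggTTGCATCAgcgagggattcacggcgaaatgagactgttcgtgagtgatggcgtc
IARS1, chr9:92293648-92293947, minus strand: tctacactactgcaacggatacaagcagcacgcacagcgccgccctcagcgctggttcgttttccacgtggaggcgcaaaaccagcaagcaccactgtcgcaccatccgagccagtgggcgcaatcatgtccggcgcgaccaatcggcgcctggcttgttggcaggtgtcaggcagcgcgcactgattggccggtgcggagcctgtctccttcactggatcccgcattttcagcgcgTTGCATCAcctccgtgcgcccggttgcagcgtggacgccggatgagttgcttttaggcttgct
SLC3A2, chr11:62881449-62881748, plus strand: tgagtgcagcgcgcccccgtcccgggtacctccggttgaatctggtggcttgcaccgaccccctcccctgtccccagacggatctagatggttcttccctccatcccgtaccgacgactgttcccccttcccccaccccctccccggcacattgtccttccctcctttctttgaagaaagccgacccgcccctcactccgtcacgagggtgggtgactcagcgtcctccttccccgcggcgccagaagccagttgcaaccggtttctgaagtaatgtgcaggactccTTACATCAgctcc

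The other 4 hold the E-box CACGTG, the site of MYC with MAX and of the related dimers, in capitals. All 4 genes, described below, were called lower in the difference of responses, with a rise in H1703. They were picked among the named genes called lower with this motif. Not all of those rose in H1703, as INSIG1 fell in both lines. The IARS1 promoter above, of a gene called higher, also holds this E-box, in lower case there.
MLX, chr17:42566850-42567149, plus strand: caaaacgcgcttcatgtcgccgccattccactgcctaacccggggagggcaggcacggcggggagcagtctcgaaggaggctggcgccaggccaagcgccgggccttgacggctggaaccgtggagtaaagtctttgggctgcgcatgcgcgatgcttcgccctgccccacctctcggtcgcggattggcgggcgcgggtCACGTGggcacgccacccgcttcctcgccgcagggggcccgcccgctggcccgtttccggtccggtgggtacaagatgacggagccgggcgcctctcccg
ABCA1, chr9:104928106-104928405, minus strand: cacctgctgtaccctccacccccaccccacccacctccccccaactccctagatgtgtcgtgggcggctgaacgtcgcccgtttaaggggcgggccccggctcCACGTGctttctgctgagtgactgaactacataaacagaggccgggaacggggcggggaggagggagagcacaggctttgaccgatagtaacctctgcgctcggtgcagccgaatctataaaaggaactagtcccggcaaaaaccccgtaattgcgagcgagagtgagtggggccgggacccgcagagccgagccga
KLF6, chr10:3785160-3785459, minus strand: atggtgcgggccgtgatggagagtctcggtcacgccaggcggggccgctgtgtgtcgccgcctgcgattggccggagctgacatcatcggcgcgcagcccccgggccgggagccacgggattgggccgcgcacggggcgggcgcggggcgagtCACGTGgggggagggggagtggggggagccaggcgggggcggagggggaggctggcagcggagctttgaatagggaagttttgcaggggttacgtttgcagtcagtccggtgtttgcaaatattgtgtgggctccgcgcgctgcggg
ARRDC4, chr15:97960453-97960752, plus strand: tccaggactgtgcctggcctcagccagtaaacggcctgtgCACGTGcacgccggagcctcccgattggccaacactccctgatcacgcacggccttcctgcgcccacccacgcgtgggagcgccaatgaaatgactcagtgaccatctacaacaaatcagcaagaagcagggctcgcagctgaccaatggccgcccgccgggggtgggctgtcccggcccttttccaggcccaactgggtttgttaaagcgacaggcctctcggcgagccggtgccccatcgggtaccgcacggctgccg

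The E-box was the motif whose share differed most with the call. It was present in 7.43% of all promoters and in 9.46% of those of tested genes. It was present in 15.6% of promoters of genes called lower (215 of 1379) and in 8.18% of those called higher (166 of 2029). The share was 21.5% for genes that fell in H460 and rose in H1703 (29 of 135) and 6.75% for genes that rose in H460 and fell in H1703 (22 of 326). Seen from the motif, 17.1% of the 1254 tested genes with an E-box were called lower and 13.2% higher, while 9.69% of the 12007 without one were called lower and 15.5% higher. Promoters rich in CpG hold this motif more often, so the shares were also split by CpG count, a split chosen after the data were seen. The share with an E-box was 9.9% for genes called lower and 5.57% for genes called higher at the lowest CpG counts (0 to 19), 15.5% and 8.81% at middle counts, and 18.5% and 9.55% at the highest (30 to 69). For genes not called the share was 6.58, 9.9 and 10.4% at the lowest, middle and highest counts. No test was run on these shares. A match is a description of letters and not evidence of binding. The other motifs searched were the CRE TGACGTCA (in 1.98% of all promoters), AP-1 TGACTCA (4.92%), E2F TTTCCCGC or TTTGGCGC (2.31%) and the sterol element TCACCCCAC (0.425%). Also searched were the antioxidant element TGACNNNGC (13.6%), the ERSE (CCAAT, 9 free bases, CCACG; 0.0806%), the CHR TTTGAA or TTCGAA (16.6%) and the NF-Y box CCAAT (35.7%), which each ERSE contains.

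**Figure D2:**
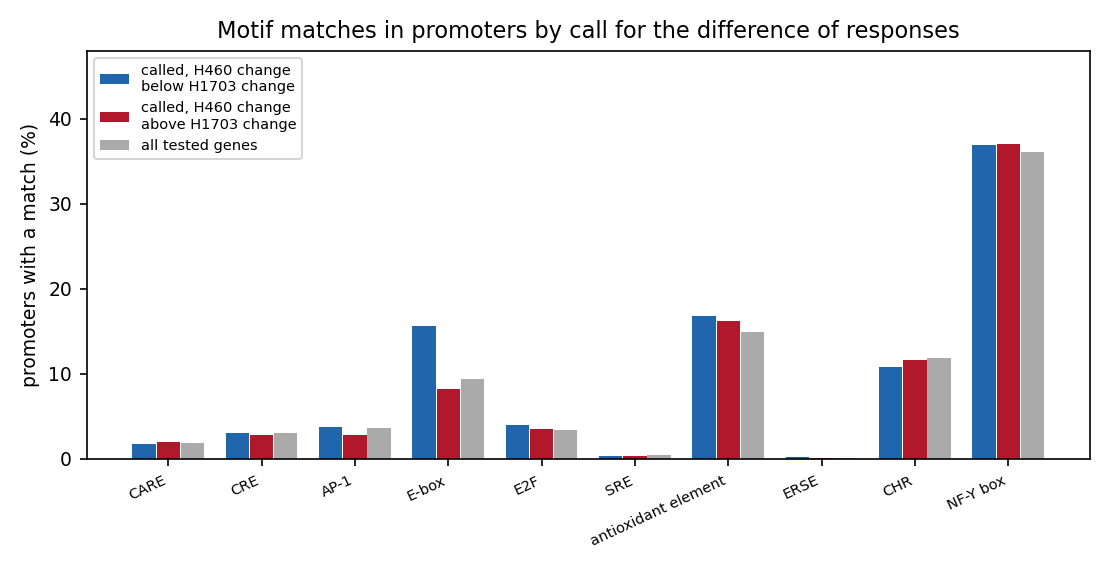
Share of promoters with at least 1 match (y axis, %) for each of the 10 motifs searched, by call for the difference of responses. Only for the E-box do the bars of genes called lower (15.6%) and higher (8.18%) stand well apart; the antioxidant element stood at 16.8 and 16.2% and CARE at 1.74 and 1.97%.

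Among the drug targets and the MYC network more genes were called lower than higher. Of 23 tested members 6 were called lower and 2 higher, and the median difference was -0.24, against -0.01 over all tested genes. MYC had 1366 and 1470 normalised reads with the combination and 1548 and 1410 with vehicle in H460. H1703 had 1688 and 1691 with the combination and 663 and 665 with vehicle. The H460 libraries overlapped between treatments, while both H1703 libraries with the combination lay above both with vehicle, and the difference of responses was -1.40 ± 0.16, adjusted p = 2.64e-06. MLX, which dimerises with MLXIP to sense sugar phosphates, had 632 and 586 with the combination and 760.1 and 751 with vehicle in H460. H1703 had 1399 and 1277 with the combination and 625 and 651 with vehicle (-1.37 ± 0.12, adjusted p = 1.7e-07). It fell by 0.31 in H460 and rose by 1.06 in H1703, on the log2 scale. MNT, a repressor that competes with MYC for MAX, had 192 and 230.3 with the combination and 208 and 231 with vehicle in H460. H1703 had 489 and 516 with the combination and 217 and 212 with vehicle (-1.28 ± 0.17, adjusted p = 1.98e-05). Its H460 libraries overlapped between treatments. MXI1, another MAX-binding repressor, rose in both lines, by 0.63 in H460 and 1.78 in H1703.

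Among the targets of TMP195, HDAC5 rose more in H460. It had 307 and 352 normalised reads with the combination and 92.9 and 89.7 with vehicle in H460. H1703 had 599 and 648 with the combination and 400.3 and 376 with vehicle, with a difference of 1.14 ± 0.16, adjusted p = 4.32e-05. The groups did not overlap within either line. HDAC4 fell in both lines, by 0.47 in H460 and 0.56 in H1703, with a difference of 0.10 ± 0.17, adjusted p = 0.762. HDAC7 (0.31 ± 0.18, adjusted p = 0.254) and HDAC9 (0.72 ± 0.37, adjusted p = 0.205) did not pass the test. HDAC9 was near the limit of detection in H460, with 6.12 and 6.84 normalised reads with the combination and 0.978 and 0 with vehicle, and the difference reached an adjusted p of 0.00228 without H460 vehicle replicate 1. HDAC7 reached 0.048 without H1703 vehicle replicate 2.

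Of 24 tested genes of the integrated stress response 11 were called higher and 3 lower, with a median difference of 0.62. In H460 20 of them rose and 2 fell, with a median change of 1.56. In H1703 11 rose and 4 fell, with a median of 0.51. CHAC1, which degrades glutathione, had 180.5 and 125 normalised reads with the combination and 0.978 and 5.51 with vehicle in H460. H1703 had 114 and 128 with the combination and 65.3 and 61 with vehicle, so the treated levels of the lines were close while the H460 vehicle libraries lay far below the H1703 ones, and the difference was 4.02 ± 0.56, adjusted p = 3.34e-05. CHAC1 was not called in H1703. NIBAN1, a stress-induced protein of translation control, had 5108 and 6196 with the combination and 508 and 475 with vehicle in H460. H1703 had 2721 and 2997 with the combination and 2019 and 2007 with vehicle (3.01 ± 0.33, adjusted p = 4.15e-06). VLDLR, a lipoprotein receptor, had 477 and 619 with the combination and 57.7 and 90.5 with vehicle in H460. H1703 had 66.4 and 67 with the combination and 78.9 and 89 with vehicle, where it was not called (3.18 ± 0.32, adjusted p = 5.78e-07). STC2, a secreted glycoprotein, had 6141 and 5769 normalised reads with the combination and 560.5 and 609 with vehicle in H460 and 0 in all 4 H1703 libraries, so its difference (3.34 ± 0.54, adjusted p = 0.00016) sets a rise beside a gene not detected, and the call was lost with limma voom (adjusted p = 0.0995).

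The 3 called lower were ATF4, DDIT3 and PPP1R15A, all of which rose in both lines. ATF4 had 4593 and 4756 normalised reads with the combination and 2771 and 2872 with vehicle in H460. H1703 had 3826 and 3564 with the combination and 1726 and 1674 with vehicle, and the groups did not overlap in either line. Its difference was -0.39 ± 0.11, adjusted p = 0.015, and the call was lost in 5 alternatives, among them the fit without H1703 combination replicate 1 (adjusted p = 0.0742), without H460 vehicle replicate 2 (0.0585) and without H1703 vehicle replicate 2 (0.059). DDIT3, the factor CHOP, had 856 and 795 with the combination and 189.8 and 175 with vehicle in H460. H1703 had 2168 and 2270 with the combination and 341 and 308 with vehicle (-0.60 ± 0.16, adjusted p = 0.00852), a call lost with neither trend nor robust settings (adjusted p = 0.0545). ATF3, a further ATF family factor, had 289.6 and 238 with the combination and 21.5 and 18.9 with vehicle in H460. H1703 had 1551 and 1491 with the combination and 254 and 298 with vehicle. ATF3 rose more in H460 (1.08 ± 0.24, adjusted p = 0.00263), although its level was higher in H1703.

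The enzymes of serine, glycine, asparagine and proline synthesis gave the clearest opposite changes of this set. Of 16 tested genes 8 were called higher and 1 lower (median difference 0.84), and 3 rose in H460 and fell in H1703. PHGDH, PSAT1 and PSPH, the enzymes that make serine from a glycolytic intermediate, were those 3. PSAT1 had 4066 and 4389 normalised reads with the combination and 1403 and 1262 with vehicle in H460. H1703 had 1122 and 1374 with the combination and 2174 and 2245 with vehicle, which put H460 with the combination above and H1703 with the combination below its own vehicle without overlap (2.50 ± 0.15, adjusted p = 6.23e-10). PHGDH had 1379 and 1366 with the combination and 520.4 and 557 with vehicle in H460. H1703 had 650.1 and 728 with the combination and 1249 and 1134 with vehicle (2.13 ± 0.32, adjusted p = 6.68e-05), and its H1703 fall was not called with quantile normalisation (adjusted p = 0.1). PSPH had 292 and 347 with the combination and 122 and 138 with vehicle in H460. H1703 had 339.8 and 336 with the combination and 609 and 626 with vehicle (2.14 ± 0.16, adjusted p = 1.15e-08). ALDH1L2, a mitochondrial folate enzyme, rose in both lines, by 3.27 in H460 and 1.42 in H1703 (1.84 ± 0.44, adjusted p = 0.005).

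Of 14 amino acid transporters 8 were called higher and 1 lower (median difference 0.76). SLC6A9, a glycine transporter, had 145 and 149 normalised reads with the combination and 15.7 and 3.93 with vehicle in H460. H1703 had 114 and 119.8 with the combination and 124 and 111 with vehicle, so all H1703 libraries lay just below the level that H460 reached with the combination (3.79 ± 0.44, adjusted p = 3.14e-06). SLC7A5, the light chain of a large neutral amino acid transporter, had 2974 and 2354 with the combination and 1976 and 1915 with vehicle in H460. H1703 had 1367 and 1465 with the combination and 2135 and 2002 with vehicle. SLC7A5 rose in H460 and fell in H1703 (0.99 ± 0.15, adjusted p = 8.15e-05), though the H460 rise was not called with median centring (adjusted p = 0.123). Its heavy chain partner SLC3A2 went the other way. It had 1905 and 1612 with the combination and 1420 and 1316 with vehicle in H460. H1703 had 2674 and 2880 with the combination and 897 and 1019 with vehicle (-1.18 ± 0.15, adjusted p = 8.78e-06). SLC3A2 rose in both lines and more in H1703, and its H460 rise was not called with median centring (adjusted p = 0.317). Of 20 cytosolic aminoacyl-tRNA synthetases, which charge tRNAs, 9 were called higher and 1 lower (median difference 0.35). MARS1, for methionine, had 4054 and 4265 with the combination and 1709 and 1724 with vehicle in H460. H1703 had 2454 and 2533 with the combination and 2687 and 2599 with vehicle (1.36 ± 0.10, adjusted p = 6.93e-09). IARS1, for isoleucine, rose by 0.55 in H460 and fell by 0.82 in H1703 (1.37 ± 0.11, adjusted p = 3.81e-08). WARS1, for tryptophan, rose by 2.21 in H460, with a change of -0.08 in H1703 that was not called (2.29 ± 0.15, adjusted p = 1.7e-09). In H1703 falls of WARS1 (-0.32, adjusted p = 0.0245) and MARS1 (-0.33, adjusted p = 0.00279) were called with median centring. With quantile normalisation the H1703 medians of the transporters, the synthesis genes and the synthetases turned from -0.08, -0.03 and -0.04 to 0.09, 0.12 and 0.18.

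Of 24 genes of the unfolded protein response 6 were called higher and 7 lower, with a median difference of -0.22, and the balance depends on the scaling, as quantile normalisation gave 3 higher and 9 lower (median -0.39). HSPA5, the main chaperone of the endoplasmic reticulum, had 12574 and 13165 normalised reads with the combination and 10383 and 10853 with vehicle in H460. H1703 had 16252 and 16036 with the combination and 3919 and 4031 with vehicle. H1703 lay above H460 with the combination and well below H460 with vehicle, and the difference was -1.74 ± 0.09, adjusted p = 7.54e-11. MANF, a secreted stress protein, fell by 0.88 in H460 and rose by 0.37 in H1703 (-1.25 ± 0.14, adjusted p = 3.65e-06). The H1703 rise of MANF was not called with median centring (adjusted p = 0.451). XBP1, the factor activated by ERN1, rose in both lines, by 1.68 in H460 and 0.74 in H1703 (0.95 ± 0.16, adjusted p = 0.000172), and EDEM1, which sends misfolded glycoproteins to degradation, rose in H460 by 1.31 with no call in H1703 (1.56 ± 0.16, adjusted p = 5.26e-07). With median centring EDEM1 was called lower in H1703 (-0.49, adjusted p = 0.0015). Of 18 cytosolic heat shock chaperones 14 fell in each line, with a median difference of 0.21 and 7 called higher and 2 lower, but 4 higher and 5 lower with quantile normalisation (median 0.09).

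**Figure D3:**
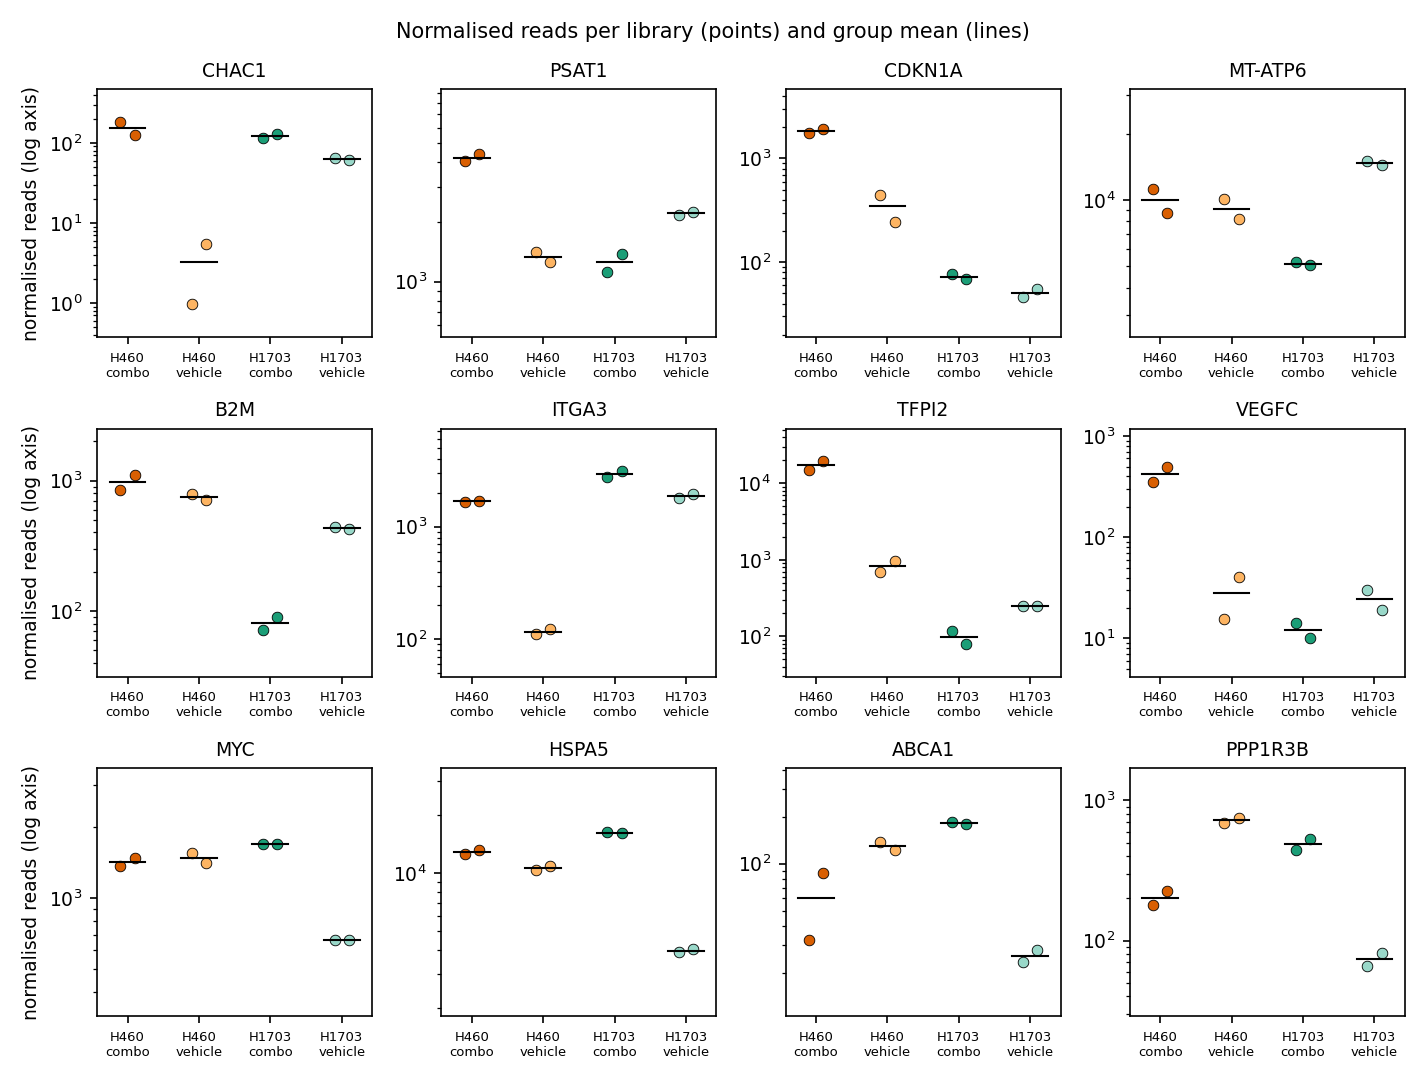
Normalised reads (log y axis) of 12 genes in each of the 8 libraries, points for libraries and lines for group means, with H460 left of H1703 and the combination left of vehicle. CHAC1, PSAT1, CDKN1A, ITGA3, TFPI2 and VEGFC were higher in H460 with the combination than in its vehicle; B2M and MT-ATP6 were lower in H1703 with the combination; MYC, HSPA5, ABCA1 and PPP1R3B were higher in H1703 with the combination.

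The 13 mRNAs of the mitochondrial genome, which encode subunits of the respiratory chain, moved up in H460 relative to H1703. Of the 13, 11 were called higher in the difference and none lower, with a median difference of 1.10. In H460 8 rose and none fell (median change 0.61), and in H1703 3 rose and 6 fell (median -0.58). MT-ATP6, a subunit of ATP synthase, had 11213 and 8746 normalised reads with the combination and 10137 and 8163 with vehicle in H460. H1703 had 5237 and 5049 with the combination and 15100 and 14348 with vehicle, and the H460 libraries overlapped while the H1703 libraries with the combination were far below those with vehicle (1.64 ± 0.18, adjusted p = 2.52e-05). MT-ND3, a subunit of complex I, rose in H460 and fell in H1703 (0.61 in H460 and -0.81 in H1703, difference 1.42 ± 0.26, adjusted p = 0.00101). With median centring the H460 change of MT-ND3 was not called (adjusted p = 0.129). MT-ND2 also rose in H460 and fell in H1703. Its H460 rise was not called with median centring (adjusted p = 0.131), and neither change was called with quantile normalisation (adjusted p = 0.189 in H460 and 0.13 in H1703). Its difference was 1.40 ± 0.29, adjusted p = 0.00727, a call lost with quantile normalisation (adjusted p = 0.0692), under which 6 of the 13 were called. The 2 mRNAs not called were MT-ND4 and MT-ND6. The ribosomal RNA MT-RNR2 changed by 0.30 in H460 and 0.33 in H1703, so it did not follow the mRNAs. The total share of mitochondrial reads, most of it MT-RNR2, was higher with the combination in both lines, at 18.19 and 17.44% against 15.69 and 14.3% in H460 and at 17.13 and 15.36% against 13.53 and 12.12% in H1703.

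**Figure D4:**
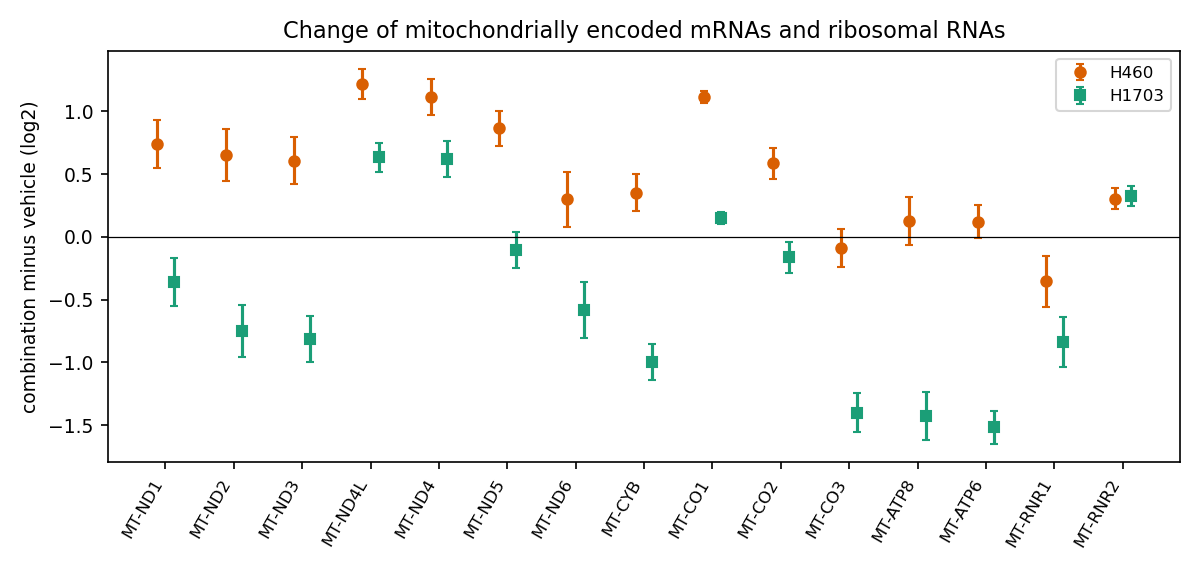
Change of the 13 mitochondrially encoded mRNAs and 2 ribosomal RNAs (combination minus vehicle, log2, with the standard error of the fit) in H460 (circles) and H1703 (squares). For every one of the 13 mRNAs the H460 point lies above the H1703 point, and for MT-RNR2 they lie together.

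Of 37 nuclear genes of complex I 5 were called higher and 1 lower in the difference (median 0.10), with 7 falling in H460 and 15 in H1703. That is no larger a share than the 19.1% called over all tested genes. Of 38 genes of complexes II to V 8 were called higher and 1 lower (median difference 0.25), or 5 and 1 with quantile normalisation. In H460 12 of the 38 fell (median change -0.27) and in H1703 25 fell (median -0.57). The member called lower there was SDHA, a subunit of complex II. SDHA had 82.6 and 79.8 normalised reads with the combination and 94.9 and 90.5 with vehicle in H460. H1703 had 675 and 673 with the combination and 231 and 236 with vehicle (-1.70 ± 0.23, adjusted p = 1.7e-05). Of 31 proteasome subunits 22 fell in H460 and 27 in H1703. In the difference 11 were called higher and none lower (median 0.38), and 6 were called higher with quantile normalisation. PSMA4 had 2165 and 2301 with the combination and 3144 and 2884 with vehicle in H460. H1703 had 762 and 768 with the combination and 1986 and 1901 with vehicle (0.91 ± 0.11, adjusted p = 3.9e-06).

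More antigen presentation and interferon genes fell in H1703 than in H460. Of 16 MHC class I genes 11 were called higher and none lower (median difference 1.31). In H1703 8 fell and 2 rose, with a median change of -0.80, and in H460 5 rose and none fell. B2M, the light chain of class I molecules, had 845 and 1095 normalised reads with the combination and 790.4 and 716 with vehicle in H460. H1703 had 71.9 and 90.6 with the combination and 441.2 and 427 with vehicle, with no overlap between the H1703 groups and no call in H460 (2.74 ± 0.21, adjusted p = 2.46e-08). ERAP2, which trims peptides, had 51 and 43.3 with the combination and 47 and 44.8 with vehicle in H460. H1703 had 158 and 161 with the combination and 998 and 949 with vehicle (2.62 ± 0.21, adjusted p = 2.46e-08). PSMB9, an immunoproteasome subunit, had 27.5 and 30.8 with the combination and 27.4 and 29.1 with vehicle in H460. H1703 had 28.3 and 29.2 with the combination and 192 and 159.7 with vehicle (2.54 ± 0.44, adjusted p = 0.000289). TAPBP, which loads peptides, rose in H460 and fell in H1703 (0.72 in H460 and -1.81 in H1703, difference 2.53 ± 0.36, adjusted p = 4.11e-05). Its H460 rise was not called with median centring (adjusted p = 0.139) or quantile normalisation (0.174). HLA-B, a class I heavy chain, and CD274, which encodes the checkpoint ligand PD-L1, were also called higher, with changes of 1.90 and 3.26 in H460 and -0.50 and 1.34 in H1703. HLA genes are alike in sequence, so reads may have been split among them.

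Of 30 interferon-stimulated genes 13 were called higher and 2 lower (median difference 1.01), with 13 falling in H1703. IFIT2 had 63.2 and 88.9 normalised reads with the combination and 26.4 and 26.7 with vehicle in H460. H1703 had 2.18 and 3.94 with the combination and 13.6 and 14.7 with vehicle (3.05 ± 0.44, adjusted p = 4.42e-05). ISG20, an RNA exonuclease, went the other way. It had 472 and 649 with the combination and 352 and 368 with vehicle in H460. H1703 had 126 and 119 with the combination and 18.5 and 16.1 with vehicle (-2.03 ± 0.31, adjusted p = 6.96e-05). The H460 medians of the MHC class I list (0.18) and of the interferon list (0.13) turned to -0.02 and -0.06 when each library was centred on its median, while the median differences were 1.36 and 1.06.

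Matrix and adhesion genes were called higher far more often than lower. Of 32 collagens, laminins and integrins 16 were called higher and 1 lower (median difference 1.05), and 17 rose in H460. ITGA3, an integrin chain that binds laminin, had 1655 and 1702 normalised reads with the combination and 110.5 and 123 with vehicle in H460. H1703 had 2778 and 3145 with the combination and 1789 and 1939 with vehicle, which is a wide step in H460 and a smaller one, from a higher level, in H1703 (3.15 ± 0.12, adjusted p = 1.37e-12). ITGB4, the chain found in hemidesmosomes, had 412 and 608 with the combination and 51.8 and 77.9 with vehicle in H460. H1703 had 77.3 and 83.5 with the combination and 64.3 and 50.4 with vehicle (2.45 ± 0.27, adjusted p = 2.15e-06). LAMA1, a laminin chain, rose in H460 and fell in H1703 (1.61 in H460 and -1.05 in H1703, difference 2.66 ± 0.52, adjusted p = 0.000933). COL5A1, a fibrillar collagen chain, was the member called lower (-1.73 ± 0.41, adjusted p = 0.00451).

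Of 18 metalloproteinases and inhibitors 8 were called higher and none lower (median difference 0.74), or 5 higher with limma voom. MMP1, an interstitial collagenase, had 368 and 1084 normalised reads with the combination and 1.96 and 0 with vehicle in H460. H1703 had 315 and 219 with the combination and 6.82 and 9.81 with vehicle. MMP1 rose in both lines. The difference was 3.40 ± 0.86, adjusted p = 0.00779, and its call was lost in 4 alternatives, with adjusted p values of 0.0618 without H460 combination replicate 2, 0.057 without H460 vehicle replicate 2, 0.061 without the trend and robust settings, and 0.153 with limma voom. With 2 reads in the H460 vehicle libraries, its H460 ratio was 810 (95% counting interval 224 to 6695). TIMP2, an inhibitor of these enzymes, had 464 and 570.1 with the combination and 313 and 367 with vehicle in H460. H1703 had 166 and 145 with the combination and 612 and 546 with vehicle (2.48 ± 0.18, adjusted p = 8.41e-09).

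Among 24 targets of TGF-beta and YAP 12 were called higher and none lower (median difference 0.89). ID1, an inhibitor of bHLH factors, had 638 and 813 with the combination and 333 and 259.6 with vehicle in H460. H1703 had 238 and 290.0 with the combination and 468 and 593 with vehicle (2.28 ± 0.24, adjusted p = 1.1e-06), so it rose in H460 and fell in H1703. ID2 changed by 0.28 in H460, where it was not called, and -2.68 in H1703 (2.96 ± 0.44, adjusted p = 6.54e-05). ANKRD1, a YAP target, rose in both lines (4.84 in H460 and 2.04 in H1703, difference 2.80 ± 0.54, adjusted p = 0.00127), a call lost with limma voom (adjusted p = 0.124). Of 7 genes of caveolae, the flask-shaped pits of the cell membrane, 4 were called higher and none lower, and CAVIN1 fell far less in H460 (-0.26) than in H1703 (-1.65, difference 1.40 ± 0.13, adjusted p = 1.57e-07).

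Of 9 ligands of EGFR family receptors 4 were called higher and none lower, and 4 of the 9 were measured in both lines. HBEGF had 167 and 244 normalised reads with the combination and 34.2 and 59.8 with vehicle in H460. H1703 had 476 and 441.3 with the combination and 373 and 467 with vehicle (1.96 ± 0.30, adjusted p = 7.22e-05). NRG1, a ligand of ERBB3 and ERBB4, rose in H460 by 1.29 with no call in H1703 (1.34 ± 0.25, adjusted p = 0.000564). EPGN had 3054 and 4602 normalised reads with the combination and 467 and 502 with vehicle in H460 and at most 0.974 in any H1703 library, and its call was lost with limma voom (adjusted p = 0.323). VEGFC, a growth factor of lymphatic vessels, had 348 and 489 with the combination and 15.7 and 40.1 with vehicle in H460. H1703 had 14.2 and 10.2 with the combination and 30.2 and 18.9 with vehicle (4.75 ± 0.41, adjusted p = 1.03e-07). It rose in H460 and fell in H1703.

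Of 27 NF-kB and cytokine genes 7 were called higher and 5 lower, or 4 and 2 with limma voom. TNFAIP3, which curbs NF-kB, had 2524 and 3999 with the combination and 707 and 818 with vehicle in H460. H1703 had 87.1 and 82 with the combination and 122 and 110.0 with vehicle (2.50 ± 0.23, adjusted p = 1.8e-07). BIRC3, an inhibitor of apoptosis, had 157 and 267 with the combination and 83.1 and 54.3 with vehicle in H460. H1703 had 1926 and 2356 with the combination and 5064 and 5422 with vehicle (2.87 ± 0.34, adjusted p = 7.07e-05). The levels of BIRC3 were higher in every H1703 library than in any H460 library. CXCL8, a chemokine, had 6432 and 14383 normalised reads with the combination and 1094 and 1349 with vehicle in H460 and 0 in the H1703 libraries, and its call was lost with limma voom (adjusted p = 0.716). ICAM1, an adhesion molecule, was called lower, with changes of -0.03 in H460 and 2.07 in H1703 (-2.10 ± 0.62, adjusted p = 0.0282). Among 28 apoptosis regulators 10 were called higher and 5 lower. CFLAR, which blocks death receptor signalling, had 1296 and 1615 with the combination and 336 and 364 with vehicle in H460. H1703 had 561 and 591 with the combination and 548 and 551 with vehicle (1.97 ± 0.13, adjusted p = 3.32e-09).

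**Figure D5:**
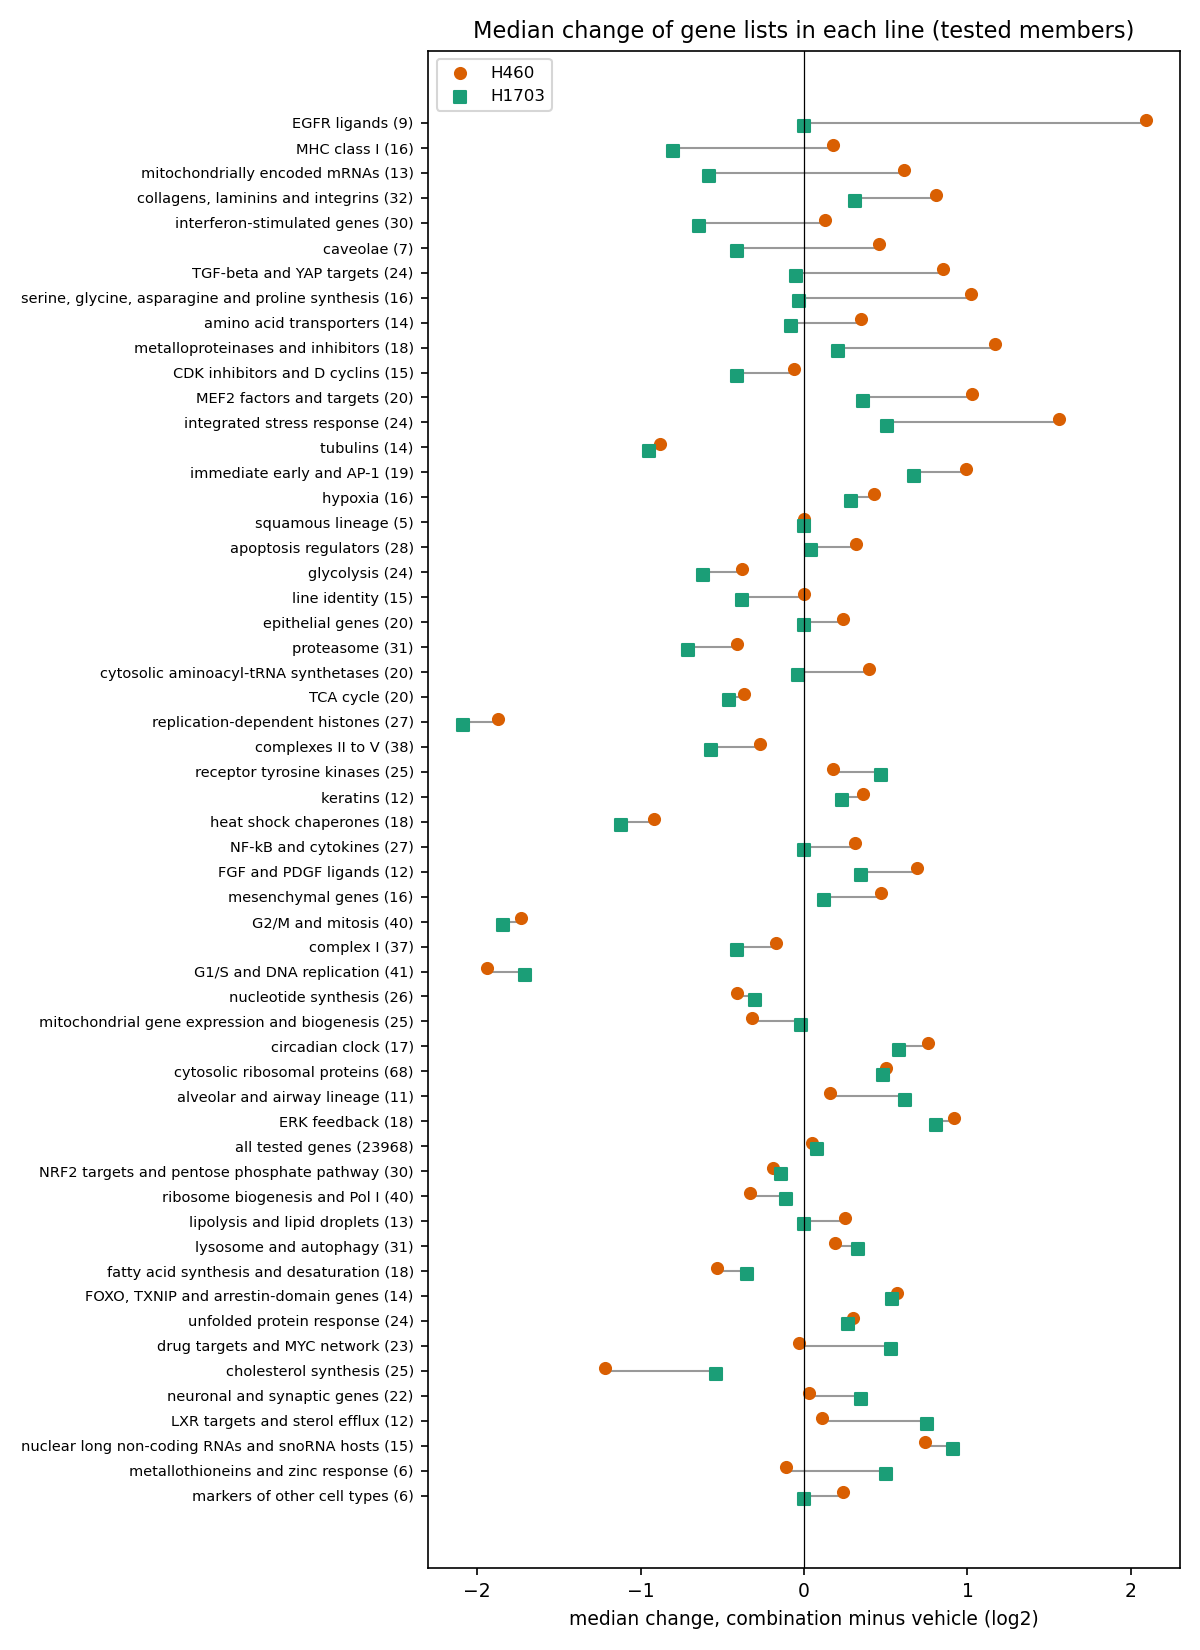
Median change (x axis, combination minus vehicle, log2) of the tested members of 55 of the 56 gene lists, and of all tested genes, in H460 (circles) and H1703 (squares), ordered by median difference, with the number of tested members in brackets. The lines lie together for the ribosomal proteins and the cell cycle lists, and apart for the EGFR ligands, MHC class I genes and mitochondrially encoded mRNAs. Of the 9 EGFR ligands 4 were measured in both lines.

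Several genes of sterol and fatty acid synthesis fell more in H460. Of 25 cholesterol synthesis genes 10 were called lower and none higher (median difference -0.35), and 21 fell in H460 and 16 in H1703. HMGCS1, an early enzyme of the mevalonate pathway, had 269 and 299 normalised reads with the combination and 991 and 1075 with vehicle in H460. H1703 had 1468 and 1526 with the combination and 1609 and 1600 with vehicle, with a wide step in H460 and no call in H1703 (-1.75 ± 0.13, adjusted p = 6.93e-09). With median centring HMGCS1 was called lower in H1703 too (-0.34, adjusted p = 0.00609). INSIG1, which retains the SREBP complex, had 76.5 and 135 with the combination and 756 and 974 with vehicle in H460. H1703 had 148 and 130.0 with the combination and 242 and 297 with vehicle (-2.11 ± 0.30, adjusted p = 0.000107). MVD, a later mevalonate enzyme, had 26.5 and 44.5 with the combination and 136 and 131 with vehicle in H460. H1703 had 106 and 112 with the combination and 113 and 109 with vehicle (-1.85 ± 0.26, adjusted p = 3.37e-05). Of 18 genes of fatty acid synthesis and desaturation 5 were called lower and 2 higher (median difference -0.19). ACSS2 was among those called higher, with a rise of 1.16 in H460 (difference 1.15, adjusted p = 0.0158). Its call was lost in 6 alternative settings. FADS2, a fatty acid desaturase, had 161 and 267 with the combination and 1075 and 1371 with vehicle in H460. H1703 had 91.5 and 89.8 with the combination and 124 and 108 with vehicle (-2.19 ± 0.26, adjusted p = 4.14e-06). Of 12 genes of LXR targets and sterol efflux, 5 were called lower and 1 higher, or 3 lower and 1 higher with limma voom. The call of NR1H3, 1 of the 5, was lost in 12 alternative settings. Among them were median centring (adjusted p = 0.0676) and quantile normalisation (adjusted p = 0.0532). The call of SMPDL3A, also 1 of the 5, was lost in 10. ABCA1, which exports cholesterol, had 32.6 and 87.8 with the combination and 137 and 123 with vehicle in H460. H1703 had 185 and 179.7 with the combination and 23.4 and 28 with vehicle (-3.94 ± 0.40, adjusted p = 2.64e-06), so it fell in H460 and rose in H1703. ABCG1, a related exporter, rose in H1703 to 4.36 and 10.2 normalised reads, at least 6.36-fold higher than the vehicle libraries, in which it had 0 reads (floor of 3 reads over the group), and was not called in H460 (-3.39 ± 0.75, adjusted p = 0.0027).

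Of 24 glycolysis genes 11 were called higher and 6 lower (median difference 0.41). SLC2A1, a glucose transporter, was called lower. It had 863 and 773 with the combination and 1545 and 1687 with vehicle in H460. H1703 had 66.4 and 73.3 with the combination and 29.2 and 29.4 with vehicle (-2.16 ± 0.13, adjusted p = 9.64e-10). HK2, a hexokinase that acts at the first step, was also called lower. It had 715 and 1084 with the combination and 833 and 929 with vehicle in H460. H1703 had 766 and 723 with the combination and 191 and 161 with vehicle (-2.07 ± 0.20, adjusted p = 2.96e-07). ENO2, an enolase, was called lower too, with a change of -0.03 in H460 that was not called and a rise of 1.60 in H1703 (-1.63 ± 0.23, adjusted p = 3.14e-05). Those called higher included GAPDH, PKM and LDHA, enzymes of later steps, which changed by 0.17, -0.54 and -0.43 in H460 and by -0.89, -1.92 and -1.87 in H1703. NQO1, a target of NRF2, had 19482 and 20552 with the combination and 14202 and 13397 with vehicle in H460. H1703 had 2332 and 2946 with the combination and 7517 and 7155 with vehicle (2.02 ± 0.13, adjusted p = 1.44e-09). It rose in H460 and fell in H1703, while the NRF2 list as a whole had 8 called higher, 4 lower (7 with quantile normalisation) and a median difference of -0.02.

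CDKN1A, an inhibitor of CDKs, had 1762 and 1939 normalised reads with the combination and 448 and 246 with vehicle in H460. H1703 had 76.2 and 68.6 with the combination and 45.8 and 55.3 with vehicle (1.97 ± 0.28, adjusted p = 4.32e-05). All H460 libraries lay above all H1703 libraries. MDM2, a ubiquitin ligase, had a difference of 0.70 ± 0.16, adjusted p = 0.003, lost with neither trend nor robust settings (adjusted p = 0.0534). CCND2, a D cyclin, had 42.8 and 29.6 normalised reads with the combination and 0 with vehicle in H460, a rise of at least 28-fold (floor of 3 reads over the group). In H1703 it had 5666 and 6980 with the combination and 12139 and 12461 with vehicle, far above H460, with no call. With median centring CCND2 was called lower in H1703 (-1.21, adjusted p = 0.0368).

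Nearly all cell cycle genes tested fell in both lines. Of 41 genes of G1/S and DNA replication 40 fell in H460 and all 41 in H1703, with 8 called higher and 7 lower in the difference (median 0.04). Within the list the MCM helicase subunits MCM2, MCM5, MCM6 and MCM7 fell more in H460, with changes of -2.09, -1.99, -1.71 and -2.08 in H460 and -1.59, -1.47, -0.98 and -1.30 in H1703. TYMS, TK1 and RRM2, enzymes that make nucleotides, fell more in H1703. They changed by -1.97, -1.97 and -2.34 in H460 and by -3.06, -3.00 and -3.31 in H1703. The nucleotide synthesis list of 26 genes had 5 called higher and 5 lower, with a median difference of 0.04. These counts were 5 and 1 with median centring, and 4 and 8 with quantile normalisation. Of 40 genes of G2/M and mitosis 40 fell in H460 and 39 in H1703, with a median difference of 0.11. FOXM1, a factor of mitotic genes, had 273 and 342 with the combination and 1039 and 964 with vehicle in H460. H1703 had 426 and 484 with the combination and 3365 and 3457 with vehicle (1.20 ± 0.15, adjusted p = 1.12e-05), so the H1703 fall was the larger. MCM4 (-0.17 ± 0.12, adjusted p = 0.403), CDCA5 (-0.01 ± 0.16, adjusted p = 0.976) and NCAPH (0.21 ± 0.17, adjusted p = 0.475) had intervals of the difference within 1.5-fold.

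Of 68 cytosolic ribosomal protein genes 60 rose in H460 and 61 in H1703 (29 in H1703 with median centring), with 4 called lower and 1 higher (median difference 0.02). The interval of the difference lay within 1.5-fold for 60 of the 68, against 11.2% of all tested genes. With quantile normalisation 28 were called lower and none higher, with a median of -0.30, so their direction in the difference depends on the scaling. CD55, a complement regulator, was a large rise shared by the lines, by 2.52 in H460 and 2.54 in H1703 (-0.02 ± 0.14, adjusted p = 0.949).

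Of 19 immediate early and AP-1 genes 11 rose in H460 and 8 in H1703, with 7 called higher and 1 lower in the difference (median 0.56). Of 18 ERK feedback genes 11 rose in H460 and 12 in H1703 (7 in H1703 with median centring), with 3 called higher and 3 lower. KLF6, a zinc finger factor, had 249 and 371 normalised reads with the combination and 295 and 342 with vehicle in H460. H1703 had 6420 and 5885 with the combination and 1196 and 1136 with vehicle (-2.46 ± 0.20, adjusted p = 4.89e-08). The H460 libraries of KLF6 overlapped between treatments. JUNB, an AP-1 subunit, had 776 and 881 with the combination and 223 and 226 with vehicle in H460. H1703 had 347 and 427 with the combination and 421 and 427 with vehicle (2.00 ± 0.20, adjusted p = 4.26e-07), with no call in H1703. With median centring JUNB was called lower in H1703 (-0.38, adjusted p = 0.0368). SPRY4, a feedback inhibitor of ERK signalling, had 818 and 1026 with the combination and 448 and 430.3 with vehicle in H460. H1703 had 1745 and 1907 with the combination and 416 and 423 with vehicle (-1.06 ± 0.20, adjusted p = 0.000694). The orphan receptor NR4A1, a known MEF2 target, had 3302 and 4666 with the combination and 276 and 349 with vehicle in H460. H1703 had 145 and 185 with the combination and 34.1 and 52.5 with vehicle (1.76 ± 0.38, adjusted p = 0.00218), rising in both lines. Of 20 MEF2 factors and targets 6 were called higher and 1 lower (median difference 0.66). ARRDC4, an arrestin-domain protein, had 38.7 and 53.6 with the combination and 80.2 and 70 with vehicle in H460. H1703 had 27.2 and 44.1 with the combination and 17.5 and 7.71 with vehicle (-2.06 ± 0.40, adjusted p = 0.000973).

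The difference and both lines were called, in opposite directions, for 583 genes (2.43% of those tested), of which 406 rose in H460 and fell in H1703 and 177 fell in H460 and rose in H1703. TFPI2, a protease inhibitor of the matrix, had 15030 and 19713 normalised reads with the combination and 696 and 959.6 with vehicle in H460. H1703 had 118 and 78.8 with the combination and 251 and 251 with vehicle (5.75 ± 0.27, adjusted p = 3.94e-11). WNT7B, a WNT ligand, had 44.9 and 16 with the combination and 0.978 and 0.787 with vehicle in H460. H1703 had 3.27 and 5.52 with the combination and 39 and 37.1 with vehicle (5.89 ± 0.41, adjusted p = 4.48e-09), and its H460 ratio of 35.8 had a counting interval of 9.48 to 303. DKK1, an inhibitor of WNT signalling, had 153 and 367 with the combination and 8.8 and 9.44 with vehicle in H460. H1703 had 42.5 and 20.5 with the combination and 60.4 and 61.7 with vehicle (5.33 ± 0.43, adjusted p = 3.66e-08). ARID5B, a DNA-binding cofactor, had 258 and 416 with the combination and 20.5 and 37.8 with vehicle in H460. H1703 had 259 and 171 with the combination and 761 and 709 with vehicle (5.22 ± 0.37, adjusted p = 6.34e-07). In all 4 the treated libraries lay on opposite sides of vehicle in the 2 lines.

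In the reverse direction, PPP1R3B, which directs a phosphatase to glycogen, had 180.5 and 225 normalised reads with the combination and 687 and 754 with vehicle in H460. H1703 averaged 487 ± 64.8 with the combination and 73.6 ± 11.8 with vehicle (SD, n = 2 each). The difference was -4.51 ± 0.19, adjusted p = 1e-11. RBM20, a splicing factor of muscle genes, had 195 and 163 with the combination and 519 and 458 with vehicle in H460. H1703 had 149 and 199 with the combination and 16.6 and 22.4 with vehicle (-4.43 ± 0.49, adjusted p = 2.22e-06). SIX2, a homeobox factor, had 0 reads in both H460 libraries with the combination and 18.6 and 16.5 normalised reads with vehicle, at least 10.8-fold lower (floor of 3 reads over the group), and 55.5 and 36.3 with the combination and 8.77 and 0.701 with vehicle in H1703 (-6.94 ± 0.84, adjusted p = 5.97e-06, a fitted value that depends on the scale at 0). MYO5B, a myosin of membrane traffic, was called in opposite directions too (-0.89 in H460 and 2.53 in H1703, difference -3.42 ± 0.25, adjusted p = 8.41e-09). CPLX2, a synaptic vesicle protein, fell in H460 to 35.7 and 13.7 normalised reads, against 1529 and 860.5 with vehicle, and was not called in H1703 (-5.04 ± 0.80, adjusted p = 0.000114).

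Over the 56 lists the median difference was above 0 for 39, below 0 for 16 and 0 for 1, from -0.65 to 1.59. Both ends are lists poorly measured in at least 1 line. The lowest was the markers of other cell types, with 0 of 6 members measured in both lines. The highest was the EGFR ligands, with 4 of 9. Each counted once, 310 of 1179 tested list members were called higher and 152 lower, which is 39.2%, against 27.2% of protein-coding genes. The lists were chosen with results of these data known, so this share is a description.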

How the data were processed

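Per the labels, total RNA came from a NucleoSpin kit and was turned into libraries with the SMARTer stranded kit. The submitters' processing notes name Trimmomatic, STAR, featureCounts and GRCh38, and their versions and the annotation are not given in the sources used here. Values as deposited are variance-stabilised and on a log2 scale, which the authors made from size-factor normalised counts, which understate the changes of genes of few reads. When inverted, 100% of values came out as whole reads within 0.02, and normalised reads are these divided by the size factor.

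Genes with a mean at least 1 above the lowest value (0.480538, 0 reads) were tested in 1 limma 3.58.1 fit of 8 groups and 16 libraries (R 4.3.3, trend and robust settings), with Benjamini-Hochberg adjustment and a threshold of 0.05. Values after ± are standard errors of that fit. A line measures a gene where a group mean lies at least 3 above the lowest value. A group of 0 reads took a floor of 3 reads (over both libraries), and ratios with 1 to 3 reads have 95% exact intervals. Intervals cover counting error only, and at this depth low genes are imprecise. The limma steps were also run on simulated data, with outcomes not reported here. Alternatives were filters, scalings, limma settings, a fit of 8 libraries, a replicate block, each of 8 libraries left out, and limma voom on the recovered reads. Positions matched GENCODE 29 for 28846 of 28951 IDs, and 22809 had a symbol.

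The comparison, the 56 lists and the genes were chosen with earlier results of these data known. Named were the 10 largest differences each way among genes measured in both lines, the 6 largest each way called in opposite directions, 3 each way measured in 1 line, up to 4 called members of each list, MYC, HDAC4, HDAC5, HDAC7, HDAC9, CDKN1A, MDM2, ATF4 and DDIT3, and 4 rises and 4 falls alike in both lines. Some genes named by this rule, and 1 list, are not reported here. A few further list members were named after their values were seen. These were PPP1R15A, HLA-B, CD274, COL5A1, ICAM1, GAPDH, PKM, LDHA, MCM2, MCM5, MCM6, MCM7, RRM2, MT-ND4, MT-ND6 and MT-RNR2. Figures were made with Python 3.11.15, pandas 2.3.3, numpy 2.4.6 and matplotlib 3.10.9.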

Additional observations from a re-analysis of the deposited data

Results flagged for a closer look

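Of the 241 genes named by rule, 230 passed the test of the difference of responses between H460 and H1703, a share that the rule itself fixed by choosing large differences and called list members. Itemised here are the 12 with the largest differences among genes called in opposite directions in the lines, and the total of 4579 genes called. The 6 that rose in H460 and fell in H1703 had differences (log2, H460 change minus H1703 change) of 5.89 for WNT7B, 5.79 for GNGT1, 5.75 for TFPI2, 5.33 for DKK1, 5.22 for ARID5B and 5.03 for CCDC9B. CCDC9B had 0 and 1.58 normalised reads in H1703 with the combination and 4.87 and 3.5 with vehicle, so its H1703 fall rests on few reads. The 6 that fell in H460 and rose in H1703 had -6.94 for SIX2, -5.71 for GPNMB, -5.09 for KLLN, -4.71 for YBX2, -4.51 for PPP1R3B and -4.43 for RBM20. SIX2, GPNMB and YBX2 had 0 reads in H460 with the combination, where the fitted values depend on the scale at 0. At least 10.8, 5.13 and 3.51-fold lower levels in H460 follow from the floor of 3 reads over the group. In H1703 the rise of GPNMB was 30.3-fold (95% counting interval 4.99 to 1240) and that of YBX2 8.98-fold (2.11 to 80.5).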

How the results depend on the processing

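Under the 16 alternative settings 3424 to 4726 genes were called for the difference of responses, against 4579, and no gene called in both had the other sign. Leaving out 1 library at a time gave 3424 to 4462 calls, with the fewest without H1703 combination replicate 1; the group then has a single library, assumed to vary like the others. Genes called in opposite directions numbered 385 with neither trend nor robust limma settings, against 583, and 439 to 579 without 1 library. With that setting 259 rose in H460 and fell in H1703, against 406, and with quantile normalisation 283 fell in H460 and rose in H1703, against 177. HSP90AA1 reversed with quantile normalisation (-0.41, adjusted p = 0.297, against 0.58). The limma voom fit called 4703 genes, 90.4% of the calls shared. A fit of only the 8 libraries of both lines called 4097 genes, with 81.5% of the main calls among them. Median centring shifted the median change by -0.194 in H460 and -0.242 in H1703 and quantile normalisation by -0.117 and -0.15, with shifts of the difference of 0.048 and 0.017, and the percentage of calls that were higher was 64.4 and 50.2, against 59.2. Of the 241 named genes 230 were called. Of these 160 were called under every setting, 10 under every setting that tested them, and 60 lost the call under at least 1. A replicate block gave 4602 calls, 98.0% of the main calls among them, and 593 in opposite directions. Deviations of same-numbered libraries correlated at -0.031 to 0.125 between groups, so the numbers were not taken to pair the libraries. Depth limits the genes of few reads, for which the median standard error of the difference was 0.96. The causes of these shifts were not tested.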
